A study of Mus musculus with 12 samples.

Results

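Absorptive enterocyte differentiation genes were followed in mouse small intestinal tumor organoids in which SMAD4 could be switched on. The list held 38 genes of the brush border, digestion, lipid handling and gluconeogenesis, and a gene was kept where its mean level reached 0.5 FPKM (a level in fragments, divided by transcript length and by library size) over the 6 libraries grown in BME or over the 6 grown on plastic. Of the 38 genes, 29 were kept, out of 24906 genes listed in each table. The kept genes were thus chosen by their measured FPKM, and that they were expressed is a description, not a result. The list itself was drawn up with the results of these libraries known. Cyp3a11 was the kept gene nearest to the limit, with 0.569 FPKM as the higher of its 2 table means, and Alpi followed with 1.71 FPKM. Apoc3 at 0.447 FPKM and Apoa4 at 0.295 FPKM were the nearest genes left out.

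The 12 RNA-Seq libraries came from organoids grown out of serrated-type tumors of mice with floxed Smad4, a BRAFV600E/+ allele and Villin-CreERT2, a tamoxifen-activated Cre recombinase under the promoter of the villin gene. Mice were given tamoxifen as young adults, which deleted Smad4 and turned on BRAFV600E in the intestinal epithelium. Every organoid group therefore carried the Smad4KO; BRAFV600E/+ genotype, the untreated libraries included, and was labelled with pINDUCER-SMAD4, a lentivirus from which doxycycline (dox) turns on SMAD4 expression. Villin is itself one of the 29 kept genes (Vil1), and its promoter drives the Cre in every group alike. Organoids received 4 µg/mL dox for 48 h or no dox. The BME group was cultured inside basement membrane extract, a gel in which organoids grow as 3D bodies. It had untreated libraries of lines 682, 700 and 889 (3 in all) and dox libraries of lines 700 and 889 (2 in all). A further BME library, of line 682, was treated with dox but is marked as mock. The plastic group was seeded on bare culture plastic and had an untreated and a dox library of each of lines 560, 700 and 889 (3 and 3 in all). This mock library was placed with the controls, because the study counted 4 vehicle and 2 dox samples in BME, although its title and genotype read like those of an induced library. A line number was read as organoids of 1 animal, and whether a line was a single clone was not stated. Organoids hold epithelium without stroma or blood supply, and the medium contained EGF, R-spondin and Noggin, an inhibitor of BMP ligands.

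Absorptive enterocytes are the main cell type of the small intestinal villus. They form from crypt progenitors as the cells move up the villus, stop dividing and build a brush border of microvilli whose membrane carries peptidases and disaccharidases, while the cytoplasm takes up fatty acids and monoacylglycerol, rebuilds triglyceride and exports it in chylomicrons, lipoprotein particles built on apolipoprotein B. The transcription factors HNF4, CDX2 and GATA4 are known regulators of these genes, and BMP signals, which are passed on by SMAD4, are known to act in the villus.

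Smad4 was measured first, as the gene that the design deletes and re-expresses. Within each pair below, the untreated library is given first and the dox or mock library second. Smad4 went from 6.53 to 17.2 in line 700, 6.23 to 27.3 in line 889 and 8.88 to 10.3 in the mock pair of line 682 in BME, and from 1.54 to 73.6 in line 560, 2.98 to 18.1 in line 700 and 4.76 to 48.9 in line 889 on plastic, in FPKM. It was higher in dox in every one of the 5 dox pairs, and the mock pair differed the least. Its limma change was 1.36 (SE 0.27) in BME, at an adjusted p of 0.959, and 3.42 (SE 0.55) on plastic, at 0.162, so it did not pass the threshold over all genes either. Reads rebuilt from the FPKM values came to 14520879 to 16349726 for a BME library and to 17011432 to 21056475 for a plastic library. The BME and plastic tables were normalized separately, so levels were never tested between them. In these bulk samples, fewer cells of a type and less RNA per cell cannot be told apart. Nothing in the labels says that the libraries of a line and treatment were grown more than once. On plastic p-values therefore measure the spread between lines. In BME both libraries of line 682, untreated and mock, entered the control arm as independent, so the spread also holds a difference within that line. No main fit paired the libraries of a line.

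The label of mature enterocytes was only partly met by the data. The 9 genes that were not kept include several that define the mature villus cell: Fabp1 (liver-type fatty acid binding protein), Apoa4 and Apoc3 (apolipoproteins of chylomicrons), G6pc and Fbp1 (the last steps of gluconeogenesis), Lct (lactase), Treh (trehalase), and Mme and Enpep (brush border peptidases). Fabp1 reached at most 0.417 FPKM, or 3 reads, in any library, and was listed at 0 in 8 of 12 libraries. Apoa4 reached 1.42 FPKM in untreated line 889 in BME, which came from 36 reads, and Lct did not exceed 0.0435 FPKM in any library. The highest level of the other genes left out was 1.45 FPKM for Apoc3, 0.759 for Treh, 0.185 for Fbp1, 0.0975 for Mme, 0.0891 for Enpep and 0.0302 for G6pc. In dox libraries none of these 9 genes exceeded 0.566 FPKM, the level of Apoa4 in line 889 on plastic. The kept genes are therefore called here a set of enterocyte genes, not a sign of mature enterocytes.

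Promoter windows are shown for the 5 kept genes with an unadjusted p under 0.05 and a change over 1 (log2) in the fit of dox against control, in BME or on plastic: Ldhd, Pck1, Apoc2, Alpi and Cdhr2. Each window runs 5′ to 3′ on the strand of the gene, from 250 bases before its annotated start to 50 bases after it, as given by RefSeq on GRCm38.p6. Capitals mark matches to short motifs searched on both strands: AAAGTCC for HNF4, TTTATNG for CDX, AGATAA for GATA and GGCGCC, a GC-rich SMAD element.
Ldhd: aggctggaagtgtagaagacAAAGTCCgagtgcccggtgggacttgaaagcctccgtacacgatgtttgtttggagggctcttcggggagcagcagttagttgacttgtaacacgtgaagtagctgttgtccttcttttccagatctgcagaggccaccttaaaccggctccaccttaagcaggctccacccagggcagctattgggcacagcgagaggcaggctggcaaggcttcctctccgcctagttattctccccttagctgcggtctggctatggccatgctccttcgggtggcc
Pck1: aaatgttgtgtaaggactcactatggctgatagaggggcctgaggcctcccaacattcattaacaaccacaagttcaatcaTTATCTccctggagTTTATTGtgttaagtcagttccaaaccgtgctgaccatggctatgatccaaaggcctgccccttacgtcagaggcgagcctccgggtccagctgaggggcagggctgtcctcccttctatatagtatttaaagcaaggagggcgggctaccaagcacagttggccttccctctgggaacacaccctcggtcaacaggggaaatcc
Apoc2: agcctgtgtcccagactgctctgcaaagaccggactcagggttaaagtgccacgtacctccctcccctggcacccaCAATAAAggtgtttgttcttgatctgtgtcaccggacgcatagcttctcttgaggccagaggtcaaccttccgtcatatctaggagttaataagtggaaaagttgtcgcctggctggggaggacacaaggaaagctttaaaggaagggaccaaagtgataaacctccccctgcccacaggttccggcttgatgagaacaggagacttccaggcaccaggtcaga
Alpi: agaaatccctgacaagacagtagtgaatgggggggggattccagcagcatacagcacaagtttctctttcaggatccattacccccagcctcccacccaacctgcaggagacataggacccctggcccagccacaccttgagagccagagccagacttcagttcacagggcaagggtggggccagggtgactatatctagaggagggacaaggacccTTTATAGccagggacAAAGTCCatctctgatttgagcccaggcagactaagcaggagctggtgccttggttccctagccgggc
Cdhr2: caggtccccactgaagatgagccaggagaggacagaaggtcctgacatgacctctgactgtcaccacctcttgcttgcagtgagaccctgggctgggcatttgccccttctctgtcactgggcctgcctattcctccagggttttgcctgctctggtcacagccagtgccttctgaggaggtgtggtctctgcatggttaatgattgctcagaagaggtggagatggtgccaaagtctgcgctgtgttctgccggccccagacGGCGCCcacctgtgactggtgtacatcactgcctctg
The Ldhd window lies at chr8:111630287-111630586 (minus strand) and holds 1 HNF4 match, which starts 230 bases before the start site. The Pck1 window at chr2:173152823-173153122 (plus strand) holds a GATA match at 169 bases and a CDX match at 155 bases before the start, both close together. The Apoc2 window at chr7:19677892-19678191 (minus strand) has 1 CDX match, 174 bases before the start, in reverse orientation. The Alpi window at chr1:87101557-87101856 (minus strand) carries CDX and HNF4 matches side by side at 33 and 18 bases before the start. The Cdhr2 window at chr13:54701213-54701512 (plus strand) has the SMAD element 13 bases after the start and no match to the other motifs.

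RefSeq windows were found for 33 of the 38 listed genes, 38 windows in all because some genes have more than 1 start. The entries not found were Mogat2, Dgat1, Dgat2, Apoc3 and Myo7b. The HNF4 letters occurred in 7 of the 38 windows (Alpi, Cyp3a11, Ces2c, Ldhd, Treh, Rbp2 and Ace), against 4.21% of all 32851 promoter windows in the table. The CDX letters occurred in 10 (Alpi, Dpp4, Pck1, Sis, Fabp2, Espn, Fabp1, Apoc2, Rbp2 and Apob), against 10.9% of all windows. For GATA the count was 6 windows (Lct, Dpp4, Pck1, Prap1, Rbp2 and Fbp1), against 11.2%, and for the SMAD element 4 windows of Ada, Mme and Cdhr2, against 11.9%. These matches are a description of the letters in these windows. Fabp1, which was near 0 in every library, had 3 CDX matches, more than any gene printed above, and Rbp2 had HNF4, CDX and GATA matches together. The factors' own genes were read in all libraries: Hnf4a lay between 79.3 and 141 FPKM in BME and between 8.92 and 67.97 on plastic, and Cdx2 between 56.4 and 98.2 in BME and between 22.7 and 115 on plastic.

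**Figure D1:**
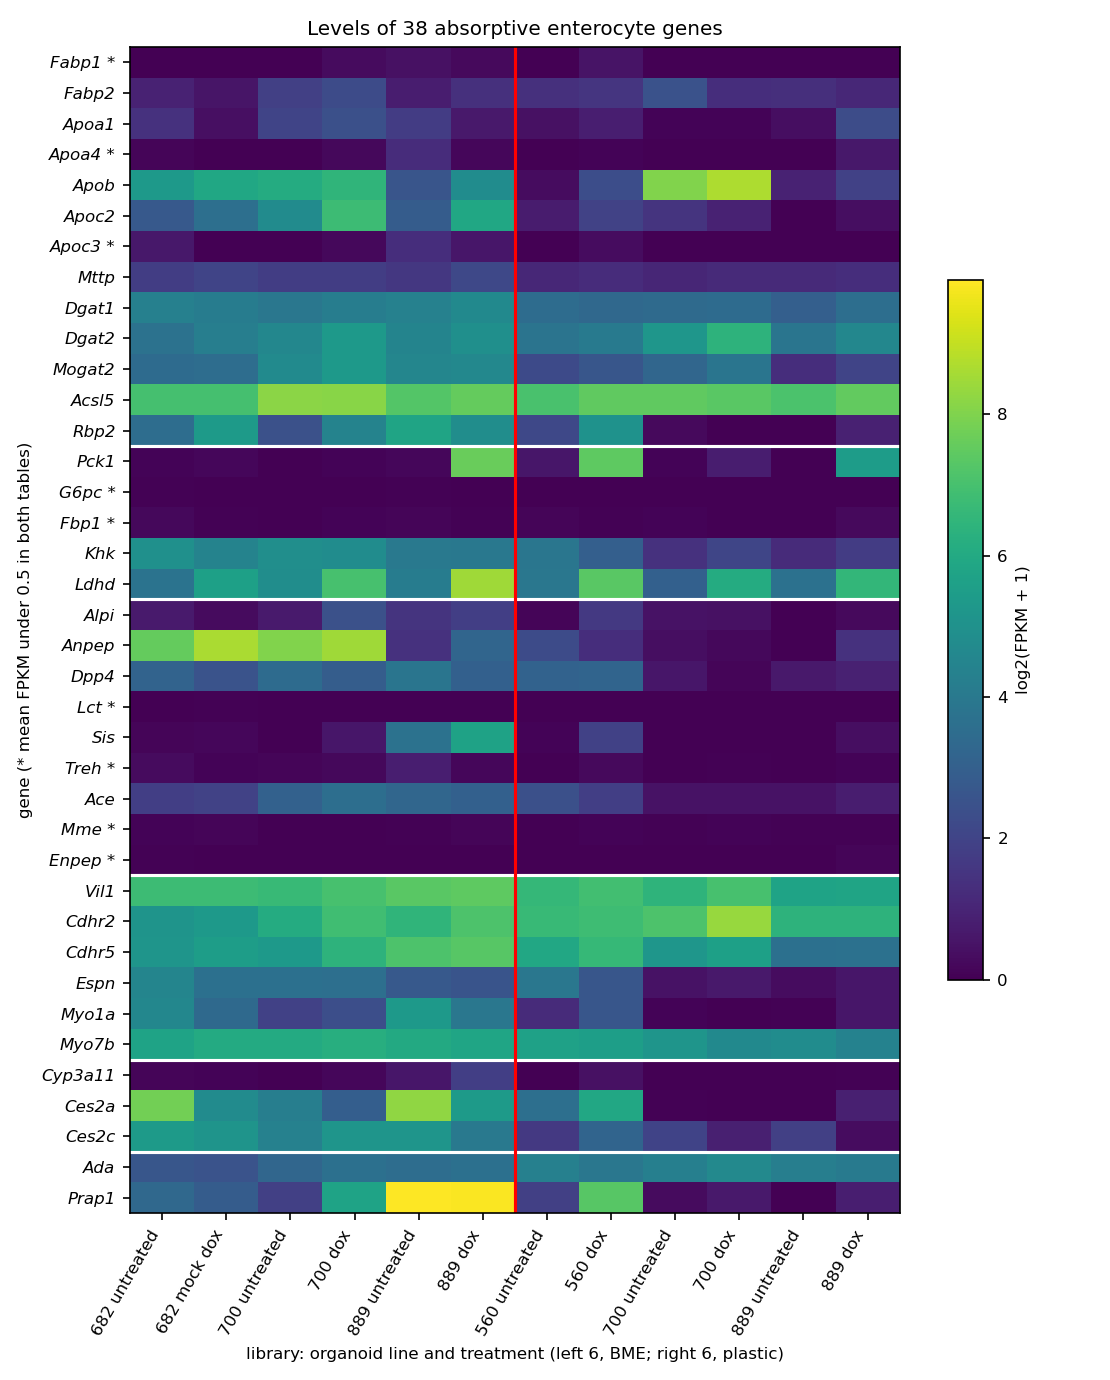
Level of each of the 38 listed genes (vertical axis) in each of the 12 libraries (horizontal axis; the red line parts BME from plastic), as log2(FPKM + 1) by colour, with white lines between groups of genes by role. Genes marked with a star had a mean under 0.5 FPKM in both tables. Acsl5, Vil1, Cdhr2, Cdhr5, Myo7b and Dgat2 are bright in every library, while Prap1, Anpep, Ces2a and Apob change most from line to line.

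Levels across the set differed widely. Of the 38 genes, 12 were at or above 1 FPKM in every library, and 6 of these were at or above 10 FPKM in every library: Dgat2, Acsl5, Vil1, Cdhr2, Cdhr5 and Myo7b. These 6 were 2 enzymes of fat synthesis and 4 structural parts of the microvillus. By contrast, 17 of the 38 were listed at 0 in at least 1 library, and 7 were under 1 FPKM in every library. In all, 11 genes passed 100 FPKM in some library. The 9 listed brush border hydrolases were low on plastic, where they summed to 1.07 to 16.2 FPKM in untreated libraries and 1.15 to 17.4 in dox libraries. In BME the same sum was 38.7 to 281 FPKM untreated, 76.3 and 384 in dox and 411 in mock, the highest. In lines 682 and 700 in BME most of the sum was Anpep alone, with 361 of 384 FPKM in the dox library of line 700.

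The question for each environment was whether SMAD4 re-expression moved these genes. In dox libraries Ldhd was higher in every line, and Pck1 was higher by far in lines 889 and 560 but not in line 700. Apoc2, Alpi, Dgat2 and Cdhr2 were higher in both BME lines, while Khk, Dpp4, Espn and Ces2a were lower in both. Yet no kept gene passed the test in either environment, a limma fit over all genes on log2(FPKM + 1) with Benjamini-Hochberg adjusted p under 0.05 and a change over 1. In BME, 0 of 29 were called, where 0.0231% of the 12996 genes tested were called higher and 0.0% lower. On plastic, 0 of 28 were called (Cyp3a11 was too low there to be tested), where 0.0243% of 12333 genes were called higher and 0.00811% lower. With unadjusted p under 0.05 and the same change, limma gave 4 genes higher in BME, Apoc2, Ldhd, Alpi and Cdhr2, against 0.746% of all genes tested, and 0 lower, against 0.208%. On plastic it gave Pck1 and Ldhd higher, 2 genes against 2.37% of all genes, and 0 lower, against 1.26%. A limma-voom fit on rebuilt reads also called none of them. At unadjusted p it gave 4 kept genes in BME, where 181 of 12996 genes passed in either direction. On plastic it gave 1, where 583 of 12333 passed. With the mock library counted with dox, Ldhd alone remained of the 4 in BME, where 91 of 12996 genes passed. With line as a block 157 of 12996 genes passed in BME, among them Apob, Apoc2, Ldhd, Alpi and Sis, without Cdhr2. On plastic 623 of 12333 passed with the block, among them Apob, Pck1 and Ldhd.

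Most kept genes lay on the higher side in dox without passing the test. The median limma change of the 29 genes in BME was 0.65 on the log2(FPKM + 1) scale, with 22 above 0 and 7 below, beside -0.01 over all genes tested. On plastic the median of 28 genes was 0.36, with 21 above 0 and 7 below, beside 0.01 over all genes. These medians and all counts of genes higher in dox are descriptions and no support for a difference, because some genes passed the 0.5 FPKM filter of a table only through dox libraries, which fixed their direction. In BME these were Pck1 (0.0948 FPKM in controls, 99.0 in dox) and Cyp3a11 (0.176 and 1.36), both among the 22 above 0 and the 17 of 29 higher in both pairs. On plastic they were Pck1 (0.201 FPKM untreated, 72.9 in dox), Apoa1 (0.229 and 1.61), Sis (0.0214 and 1.02), Alpi (0.171 and 0.897) and Myo1a (0.467 and 1.95), all 5 among the 21 above 0. Of these, Pck1 and Apoa1 are among the 11 of 28 higher in all 3 plastic pairs. By pair, the median was 0.42 in line 700 and 0.17 in line 889 in BME, and 0.41, 0.03 and 0.39 in lines 560, 700 and 889 on plastic. It was 0.01 in the mock pair, with 16 genes above 0 and 13 below. The BME median was 0.36 with line as a block, 0.43 with a filter at mean FPKM 2 and 0.25 with the mock library counted with dox. On plastic the median without the dox library of line 560 was 0.04, and without the untreated library of line 889 it was 0.10. Both dox libraries of BME lay above all 4 control libraries for 6 of 29 genes (Apoc2, Dgat2, Ldhd, Alpi, Cdhr2 and Ada), against 6.33% of all genes tested, and below all 4 for 0, against 5.83%. On plastic the 3 dox libraries lay above the 3 untreated for Pck1 and Ldhd, 2 of 28 against 7.87%, and below for 0, against 7.26%.

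**Figure D2:**
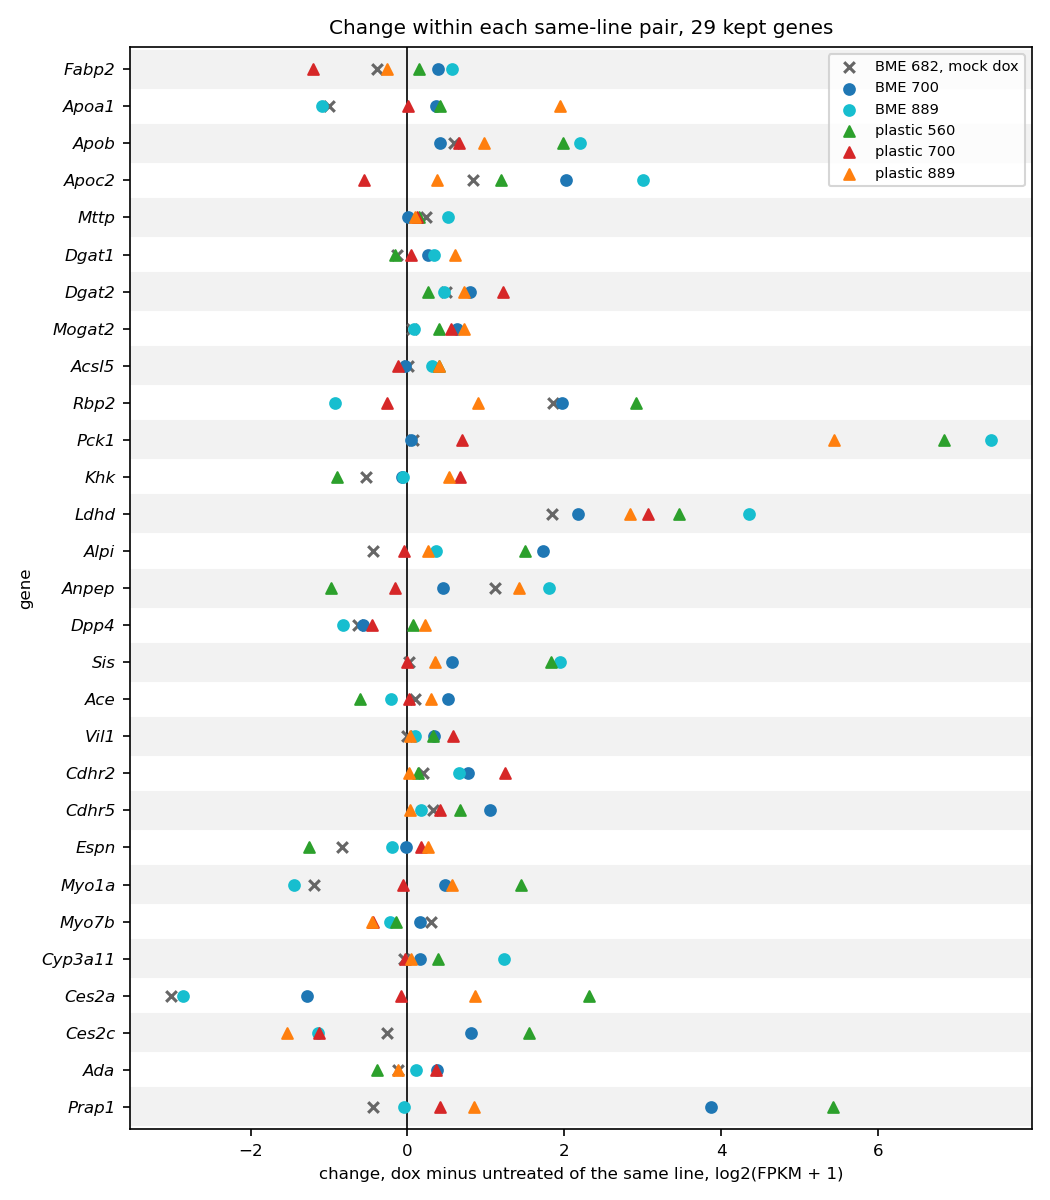
Change of each of the 29 kept genes (vertical axis) within each same-line pair, as dox minus untreated on the log2(FPKM + 1) scale (horizontal axis); circles are the 2 BME dox pairs, triangles the 3 plastic dox pairs and crosses the mock pair of line 682. Ldhd lies to the right of 1 in all 6 pairs, Pck1 splits into 3 pairs above 5 and 3 pairs under 1, and Ces2a lies far to the left in all 3 BME pairs.

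Counted over all 5 dox pairs, 9 of 28 genes were higher in every pair: Apob, Mttp, Dgat2, Mogat2, Pck1, Ldhd, Vil1, Cdhr2 and Cdhr5. Over all genes tested in both tables this share was 8.7%. None of the 28 was lower in every pair, against 8.06% of all genes. Within BME, 17 of 29 genes were higher in both dox pairs (27.2% of all genes) and 4 lower in both (29.5%). Within plastic, 11 of 28 were higher in all 3 pairs (18.6%) and 1 lower (18.7%). A change over 1 in every pair was found in BME for Apoc2 and Ldhd, 2 genes against 0.523% of all genes, and on plastic for Ldhd, 1 gene against 0.876%. A change over 1 in all 5 dox pairs together was reached by Ldhd alone among the 28, against 0.225% of all genes. Ldhd also passed 1 in the mock pair, which 17 of 11977 genes (0.142%) did together with the 5 dox pairs.

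Ldhd, the mitochondrial D-lactate dehydrogenase (NCBIM37 chr8:114147685-114154274, minus strand), was the only kept gene with a change over 1 in all 5 dox pairs. Its FPKM in BME went from 27.6 to 128 in line 700, 16.7 to 361 in line 889 and 12.7 to 48.3 in the mock pair of line 682. On plastic it went from 14.1 to 164 in line 560, 7.17 to 67.5 in line 700 and 12.02 to 92.6 in line 889. Dox and control libraries did not overlap in either environment, and the mock library was the highest of the 4 controls. The mean was 26.3 ± 15.9 FPKM (SD, n = 4) in BME controls and 244 ± 165 FPKM (SD, n = 2) in dox, and 11.1 ± 3.54 FPKM (SD, n = 3) on untreated plastic and 108 ± 50.3 FPKM (SD, n = 3) in dox. Within pairs, the dox library held 4.64 and 21.6 times the untreated FPKM in lines 700 and 889 in BME, 11.7, 9.41 and 7.70 times in lines 560, 700 and 889 on plastic, and 3.79 times in the mock pair. The limma change in BME was 3.16 ± 0.62 (SE) at an adjusted p of 0.959, and on plastic 3.12 ± 0.39 at 0.115. On plastic Ldhd passed the threshold with line as a block (change 3.12, adjusted p = 0.0353). It also passed without the dox library of line 700, its lowest there, but that choice favours a call and adds no support. The same choice took the calls over all genes from 4 to 55. With any other single library left out Ldhd was not called. Its adjusted p ran from 0.0353 to 0.498 over the alternatives. In the mock pair, Smad4 itself went from 8.88 to 10.3 FPKM.

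Pck1, the cytosolic phosphoenolpyruvate carboxykinase that commits carbon to gluconeogenesis and glyceroneogenesis (NCBIM37 chr2:172978549-172984774, plus strand), was near 0 without dox and very high in some dox libraries. In BME its FPKM went from 0.0263 to 0.0587 in line 700, 0.143 to 198 in line 889 and 0.0772 to 0.133 in the mock pair of line 682. On plastic it went from 0.527 to 175 in line 560, 0.0592 to 0.709 in line 700 and 0.0185 to 43.1 in line 889. The gene was thus high in 3 dox libraries, those of line 889 in both environments and of line 560, and under 1 FPKM in both dox libraries of line 700 and in every control. The limma change in BME was 3.73 ± 1.85 (SE) at an adjusted p of 0.959, and on plastic 4.33 ± 1.56 at 0.567. Without the dox library of line 700, in which the gene was low, the limma change was 7.51 in BME (adjusted p = 0.0024) and 6.22 on plastic (adjusted p = 0.0242). Leaving out the low library fixes this outcome, and in BME 1 dox library then stands against 4 controls that alone give the spread, so neither value supports a difference. Over the alternatives the adjusted p ran from 0.0024 to 1.00 in BME and from 0.0242 to 0.999 on plastic. Gata6, a zinc-finger factor of the intestinal epithelium, was high in the same libraries: it went from 10.5 to 10.6 in line 700, 26.9 to 104 in line 889 and 12.02 to 12.1 in the mock pair of line 682 in BME and from 14.1 to 94.4 in line 560, 9.18 to 13.5 in line 700 and 14.7 to 132 in line 889 on plastic, in FPKM. Its part in the Pck1 values was not tested. The other gluconeogenic genes on the list, G6pc and Fbp1, did not exceed 0.185 FPKM in any library.

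Khk, the ketohexokinase that phosphorylates fructose, completed the sugar genes. In BME its FPKM went from 28.7 to 27.4 in line 700, 15.1 to 14.6 in line 889 and 30.1 to 20.7 in the mock pair of line 682, and on plastic from 13.9 to 6.996 in line 560, 1.67 to 3.25 in line 700 and 1.32 to 2.34 in line 889. Groups overlapped in both environments, and limma changes were -0.18 in BME (SE 0.36) and 0.10 on plastic (SE 0.75).

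**Figure D3:**
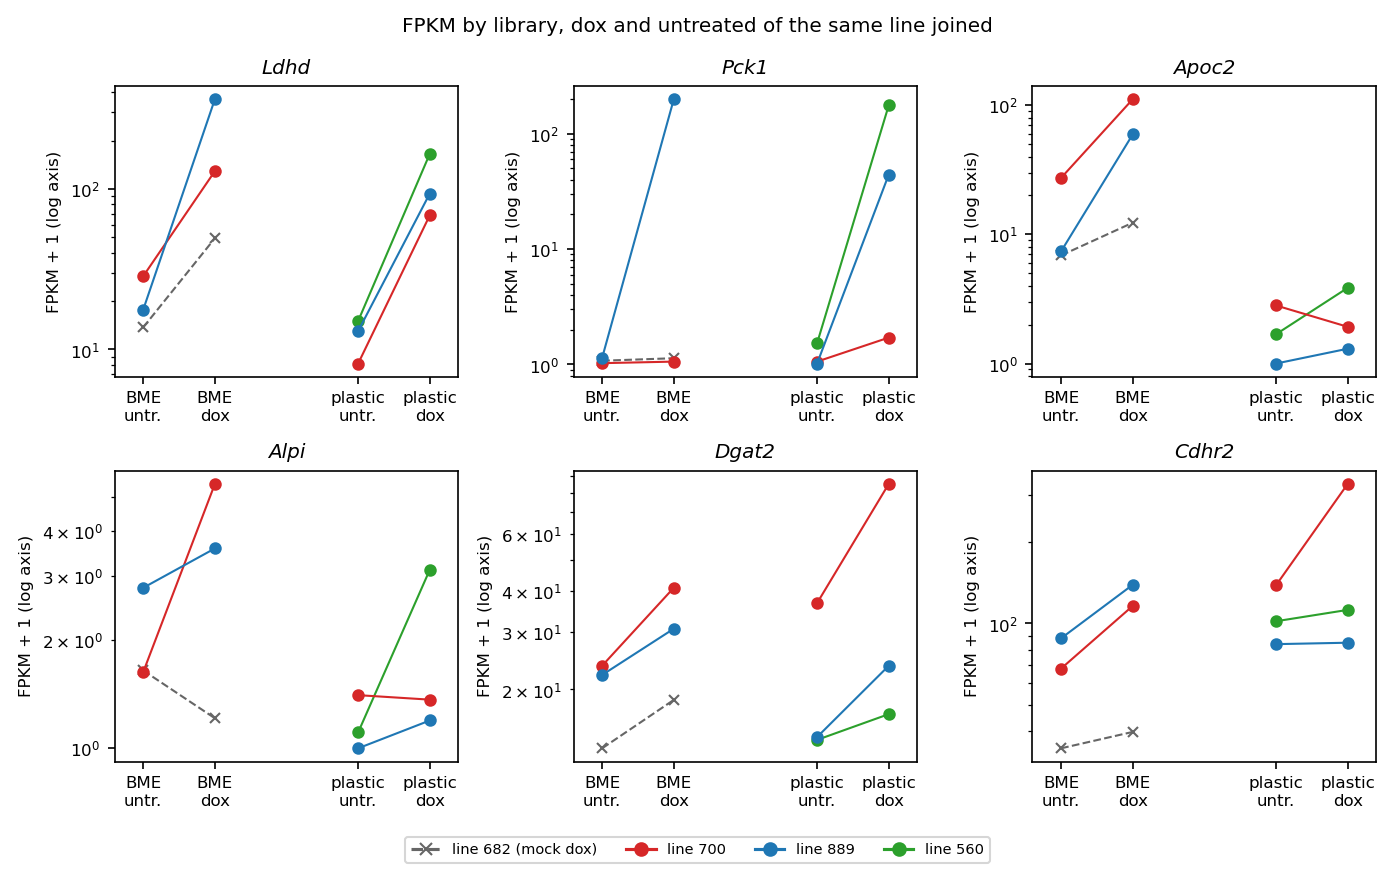
FPKM + 1 (vertical axis, log scale) of Ldhd, Pck1, Apoc2, Alpi, Dgat2 and Cdhr2 in each library, with untreated (untr.) and dox libraries of a line joined and coloured by line; the dashed grey line joins untreated line 682 to its mock dox library, drawn at the dox position. Ldhd is higher in dox in every line, Pck1 is high in dox in lines 889 and 560 but not in line 700, and Apoc2 separates only in BME, where its dox libraries stand at 58.4 and 110.2 FPKM.

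Among the genes of chylomicron assembly and lipid uptake, 10 of 13 were kept, and all 10 had a limma change above 0 in BME (median 0.59), as had 9 of 10 on plastic (median 0.45), none of them called. Over all genes tested, 6363 of 12996 were above 0 in BME and 6297 of 12333 on plastic. The fit did not pair lines, and within pairs not all 10 were higher: in BME the changes of Apoa1 were 0.36 in line 700 and -1.09 in line 889, that of Rbp2 was -0.93 in line 889 and that of Acsl5 was -0.03 in line 700. Apoc2, the apolipoprotein that activates lipoprotein lipase (NCBIM37 chr7:20256928-20266772, minus strand), differed most in BME. Its FPKM there went from 26.4 to 110.2 in line 700, 6.39 to 58.4 in line 889 and 5.87 to 11.3 in the mock pair of line 682. Both dox libraries stood above all 4 controls, with a mean of 84.3 ± 36.6 FPKM (SD, n = 2) against 12.5 ± 9.57 FPKM (SD, n = 4). On plastic it was low throughout and went from 0.685 to 2.85 in line 560, 1.82 to 0.925 in line 700 and 0 to 0.302 in line 889, with overlapping groups. The limma change in BME was 2.83 ± 0.60 (SE) at an adjusted p of 0.959, and on plastic 0.34 ± 0.53 at 0.912. The log2(FPKM + 1) scale understates changes of low genes. In line 560 on plastic, 0.685 to 2.85 FPKM counted as 1.19. In line 700 in BME, 26.4 to 110.2 FPKM counted as 2.02. The dox effect on plastic minus that in BME was -2.49 (SE 0.86, limma adjusted p = 1.00) for Apoc2, and the part of the scale in it was not tested. In that comparison 0 of 28 genes were called, and at an unadjusted p under 0.05 Apoc2 was the 1 gene on the lower side, against 0.618% of all genes, with 0 on the higher side, against 0.71%. With line as a block Apoc2 was again on the lower side and Ces2a was on the higher side. Apoc2 did not pass that unadjusted p with a pseudocount of 0.1, with limma-voom, with the mock library counted with dox, with lines 700 and 889 only or without the BME dox library of line 700, and with a filter at mean FPKM 2 it was not tested. The 31-base words of Apoc2 transcripts were shared with the adjoining Apoc4 for 8.84%.

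Apob, the structural protein of chylomicrons, differed more between lines than between dox and untreated libraries. Its FPKM in BME went from 66.4 to 89.05 in line 700, 5.14 to 27.1 in line 889 and 38.8 to 58.9 in the mock pair of line 682. The plastic pairs went from 0.262 to 4.01 in line 560, 256 to 406 in line 700 and 0.917 to 2.78 in line 889. It was higher in all 6 same-line pairs, yet on plastic untreated line 700 held more than the dox libraries of lines 560 and 889. Limma changes were 0.68 in BME (SE 1.05) and 1.21 on plastic (SE 2.57). With line as a block they were 1.31 (SE 0.46, adjusted p = 0.671) and 1.21 (SE 0.30, adjusted p = 0.238).

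The enzymes that rebuild triglyceride were measured in every library. Dgat2, a diacylglycerol acyltransferase, went from 22.6 to 40.02 in line 700, 21.2 to 29.7 in line 889 and 12.2 to 17.6 in the mock pair of line 682 in BME, in FPKM. On plastic it went from 13.01 to 15.8 in line 560, 35.8 to 84.3 in line 700 and 13.3 to 22.6 in line 889. The 2 BME dox libraries were above all 4 controls, and the groups overlapped on plastic, with limma changes of 0.91 in BME (SE 0.27) and 0.73 on plastic (SE 0.68). Dgat1, the other diacylglycerol acyltransferase, went from 14.1 to 17.1 in line 700, 19.6 to 25.03 in line 889 and 18.6 to 16.9 in the mock pair of line 682 in BME and from 10.2 to 9.05 in line 560, 9.58 to 9.90 in line 700 and 6.89 to 11.01 in line 889 on plastic. Its range across all 12 libraries was 6.89 to 25.03 FPKM, and changes were 0.25 in BME (SE 0.21) and 0.16 on plastic (SE 0.22). Mogat2, the monoacylglycerol acyltransferase that begins resynthesis in the enterocyte, went from 25.4 to 40.1 in line 700, 22.1 to 23.4 in line 889 and 10.1 to 10.6 in the mock pair of line 682 in BME and from 3.68 to 5.21 in line 560, 8.72 to 13.3 in line 700 and 1.47 to 3.06 in line 889 on plastic. Mogat2 was higher in dox in all 5 dox pairs, by less than the spread between lines, and its changes were 0.92 in BME (SE 0.45) and 0.56 on plastic (SE 0.63).

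Acsl5, an acyl-CoA synthetase that activates fatty acids, was abundant in every library. Its FPKM in BME went from 287 to 280.5 in line 700, 153 to 189.8 in line 889 and 125 to 126 in the mock pair of line 682, and on plastic from 132 to 175 in line 560, 179 to 164 in line 700 and 137 to 182 in line 889. The groups overlapped, and changes were 0.51 in BME (SE 0.38) and 0.23 on plastic (SE 0.20). Rbp2, the intestinal retinol binding protein, went from 4.46 to 20.5 in line 700, 53.5 to 27.6 in line 889 and 10.5 to 40.8 in the mock pair of line 682 in BME and from 3.38 to 31.9 in line 560, 0.198 to 0 in line 700 and 0 to 0.865 in line 889 on plastic. It was higher in dox in lines 700 (BME) and 560, and in the mock pair, but lower in line 889 in BME, with changes of 0.35 in BME (SE 0.95) and 1.18 on plastic (SE 1.33). The remaining kept lipid genes were low: Fabp2, the intestinal fatty acid binding protein, ranged from 0.492 to 4.70 FPKM over the 12 libraries, Apoa1 from 0.0602 to 4.30 and Mttp, the transfer protein that loads lipid onto apolipoprotein B, from 1.06 to 3.38.

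Of the brush border hydrolases, 5 of 9 were kept. Alpi, intestinal alkaline phosphatase (NCBIM37 chr1:88994579-88998181, minus strand), went from 0.628 to 4.42 in line 700, 1.79 to 2.59 in line 889 and 0.644 to 0.212 in the mock pair of line 682 in BME, in FPKM. On plastic it went from 0.107 to 2.13 in line 560, 0.405 to 0.365 in line 700 and 0 to 0.195 in line 889. Both BME dox libraries were above the 4 controls, at a level of a few FPKM, and on plastic the groups overlapped. The limma change in BME was 1.35 ± 0.37 (SE) at an adjusted p of 0.959, and on plastic 0.57 ± 0.41 at 0.779. Anpep, aminopeptidase N, went from 262 to 361 in line 700, 1.67 to 8.31 in line 889 and 185 to 402 in the mock pair of line 682 in BME and from 3.84 to 1.47 in line 560, 0.307 to 0.170 in line 700 and 0 to 1.68 in line 889 on plastic. Lines 682 and 700 in BME held over 100 FPKM of it with or without dox, and line 889 held under 10, and limma gave changes of -0.55 in BME (SE 2.39) and 0.10 on plastic (SE 0.65). With line as a block its change in BME was 1.13.

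Sis, sucrase-isomaltase, was expressed mainly in line 889 in BME. Its FPKM went from 0.0223 to 0.512 in line 700, 12.4 to 50.7 in line 889 and 0.110 to 0.124 in the mock pair of line 682 there, and from 0.0640 to 2.79 in line 560, 0 to 0 in line 700 and 0 to 0.280 in line 889 on plastic. Only 3 of 12 libraries exceeded 1 FPKM: both libraries of line 889 in BME and the dox library of line 560. Limma changes were 2.12 in BME (SE 1.66) and 0.73 on plastic (SE 0.50). Dpp4 (dipeptidyl peptidase 4) ranged from 0.0994 to 13.5 FPKM and Ace (angiotensin converting enzyme) from 0.385 to 10.99, both with overlapping groups.

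All 6 microvillus genes were kept. Vil1, the actin-bundling protein villin, went from 101 to 129 in line 700, 162 to 173 in line 889 and 109.9 to 109.9 in the mock pair of line 682 in BME, in FPKM. The plastic values went from 94.6 to 118 in line 560, 85.3 to 128 in line 700 and 52.1 to 53.3 in line 889. It was higher in dox in each of the 5 dox pairs, and its changes of 0.33 in BME (SE 0.24) and 0.31 on plastic (SE 0.40) were small beside the spread between lines. Cdhr2 and Cdhr5 are the protocadherins that link the tips of neighbouring microvilli. Cdhr2 (NCBIM37 chr13:54802822-54838023, plus strand) went from 67.00 to 115 in line 700, 87.1 to 138 in line 889 and 33.4 to 38.6 in the mock pair of line 682 in BME, where dox stood above every control, and from 101 to 111 in line 560, 138 to 329 in line 700 and 82.8 to 83.8 in line 889 on plastic, where groups overlapped. Its limma change in BME was 1.25 ± 0.40 (SE) at an adjusted p of 0.959, and on plastic 0.47 ± 0.52 at 0.866. Cdhr5 went from 39.8 to 83.4 in line 700, 141 to 159 in line 889 and 35.2 to 44.5 in the mock pair of line 682 in BME and from 60.8 to 97.5 in line 560, 35.7 to 47.97 in line 700 and 11.5 to 11.8 in line 889 on plastic. Both libraries of line 889 were the highest for Cdhr5 in BME and the lowest on plastic, and the changes were 1.06 in BME (SE 0.60) and 0.38 on plastic (SE 0.87).

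Myo7b, a myosin of the same tip-link complex, varied little between BME libraries. It went from 65.4 to 73.04 in line 700, 64.3 to 55.1 in line 889 and 52.8 to 65.6 in the mock pair of line 682 in BME and from 50.3 to 45.5 in line 560, 34.5 to 25.1 in line 700 and 27.4 to 19.8 in line 889 on plastic, in FPKM. Myo7b was the only kept gene that was lower in dox in all 3 plastic pairs, with pair changes between -0.45 and -0.14 on the log2 scale, and its limma changes were 0.04 in BME (SE 0.17) and -0.34 on plastic (SE 0.37). Espn, the actin bundler espin, went from 11.5 to 11.3 in line 700, 5.73 to 4.88 in line 889 and 21.6 to 11.7 in the mock pair of line 682 in BME and from 14.2 to 5.33 in line 560, 0.412 to 0.596 in line 700 and 0.263 to 0.511 in line 889 on plastic. Myo1a, the brush border myosin that ties actin to the membrane, went from 2.77 to 4.25 in line 700, 39.9 to 14.1 in line 889 and 23.03 to 9.54 in the mock pair of line 682 in BME and from 1.31 to 5.30 in line 560, 0.0611 to 0.0177 in line 700 and 0.0286 to 0.528 in line 889 on plastic. Neither separated dox from control: changes were -0.55 in BME (SE 0.52) and -0.27 on plastic (SE 1.07) for Espn, and -0.66 in BME (SE 0.98) and 0.65 on plastic (SE 0.71) for Myo1a.

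Ces2a, a carboxylesterase of the intestinal mucosa, was 1 of 4 kept genes lower in both BME dox pairs, with Khk, Dpp4 and Espn. Its FPKM there went from 17.8 to 6.73 in line 700, 305 to 41.02 in line 889 and 218 to 26.2 in the mock pair of line 682. Plastic libraries went from 11.3 to 60.2 in line 560, 0.0544 to 0 in line 700 and 0 to 0.819 in line 889. Ces2a was the only kept gene with a change under -1 in both BME dox pairs (-1.28 and -2.86), against 0.339% of all genes, but the mock pair showed -3.01, and on plastic the pairs were 2.32, -0.08 and 0.86. The dox libraries overlapped the controls, since untreated line 700 and the mock library lay between the 2 dox libraries, and the limma change in BME was -2.09 ± 1.37 (SE) at an adjusted p of 0.959, and on plastic 1.03 ± 1.72 at 0.921. Ces2c, a close relative, went from 19.1 to 34.3 in line 700, 34.6 to 15.2 in line 889 and 40.5 to 33.7 in the mock pair of line 682 in BME and from 2.08 to 8.05 in line 560, 3.02 to 0.844 in line 700 and 2.66 to 0.267 in line 889 on plastic, with changes of -0.42 in BME (SE 0.40) and -0.37 on plastic (SE 0.71). Of the 31-base words of Ces2c transcripts 75.1% were shared with other genes, 72.3% with Ces2d-ps, so its level is uncertain. Cyp3a11, a drug-metabolizing cytochrome P450, ranged from 0 to 2.60 FPKM, and 32.4% of its words were shared.

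Ada, the adenosine deaminase, went from 8.57 to 11.4 in line 700, 10.6 to 11.4 in line 889 and 5.23 to 4.72 in the mock pair of line 682 in BME and from 18.7 to 14.1 in line 560, 18.5 to 24.1 in line 700 and 17.7 to 16.1 in line 889 on plastic, in FPKM. In BME dox lay above all controls by a small margin, and changes were 0.65 in BME (SE 0.32) and -0.05 on plastic (SE 0.24). Prap1, a secreted proline-rich acidic protein of the intestinal epithelium, had the highest level of the whole set. In BME it went from 2.67 to 52.8 in line 700, 952 to 926 in line 889 and 9.05 to 6.41 in the mock pair of line 682, and on plastic from 2.71 to 159 in line 560, 0.213 to 0.613 in line 700 and 0 to 0.796 in line 889. Dox went with a large difference in 2 pairs, line 700 in BME and line 560 on plastic, and with a change of -0.04 in line 889 in BME, where the untreated level was already the highest of the set. The limma change in BME was 3.31 ± 2.40 (SE) at an adjusted p of 0.959, and on plastic 2.23 ± 1.77 at 0.807.

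**Figure D4:**
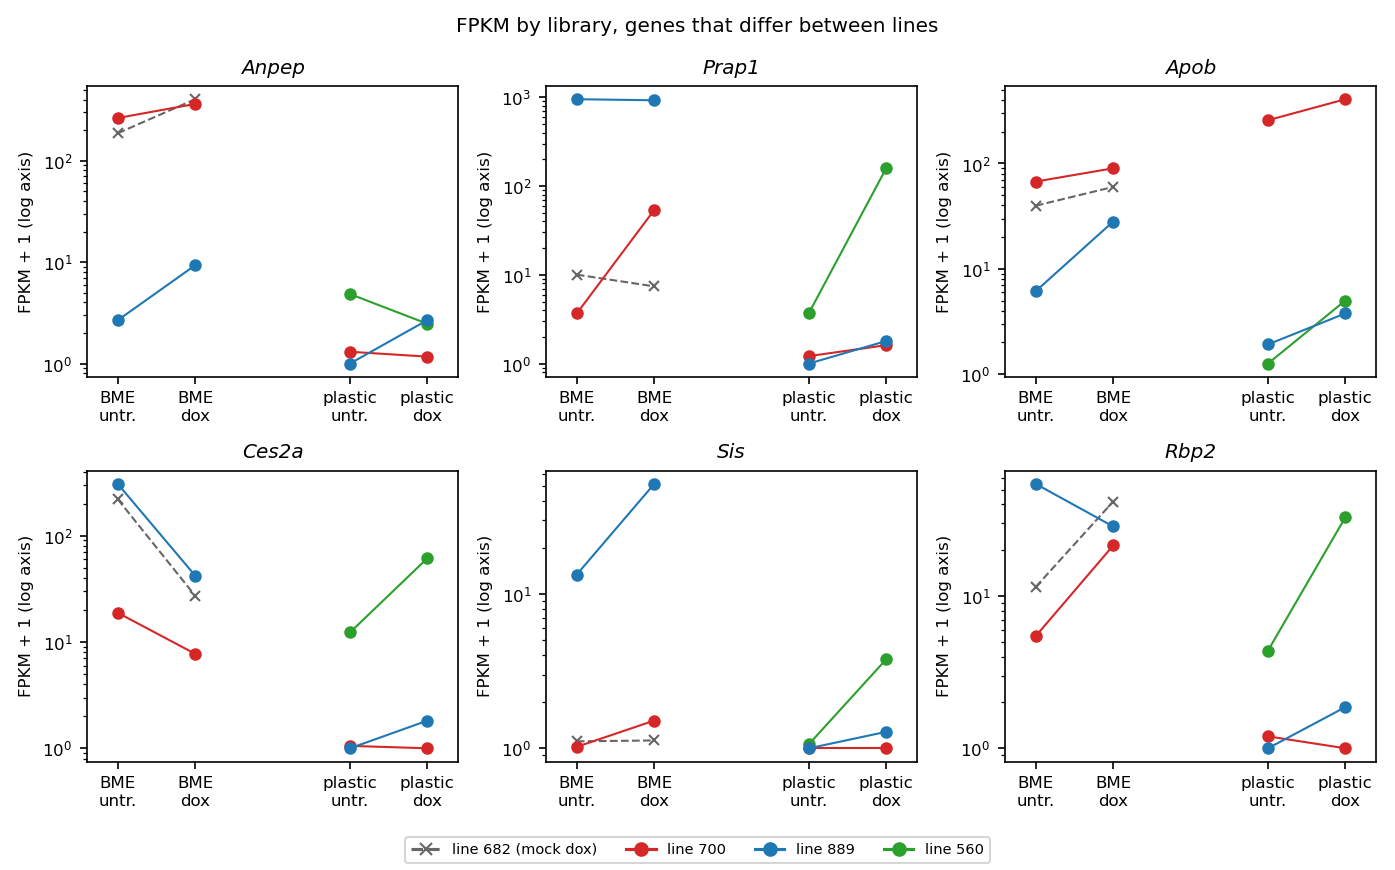
FPKM + 1 (vertical axis, log scale) of Anpep, Prap1, Apob, Ces2a, Sis and Rbp2 in each library, drawn as in the plot of Ldhd and Pck1 (lines join untreated to dox of one organoid line; dashed grey, the mock pair of line 682). Lines differ by more than their own untreated and dox libraries do for Anpep and Sis in BME and for Apob on plastic.

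Lines differed from each other more than dox differed from untreated for many of the genes, as they did for genes in general. In BME the range over the 3 untreated lines was larger than every dox pair change for 20 of 29 genes, against 72.8% of all genes tested. On plastic this held for 15 of 28, against 50.4%. A range over 2 on the log2 scale between untreated lines was found for 7 of 29 genes in BME (Apob, Rbp2, Anpep, Sis, Myo1a, Ces2a and Prap1), against 4.54% of all genes. On plastic it was found for 8 of 28 (Apob, Rbp2, Khk, Anpep, Dpp4, Cdhr5, Espn and Ces2a), against 6.02%. The widest ranges were 8.02 for Prap1 and 6.62 for Anpep in BME and 7.67 for Apob on plastic. The 2 widest in BME ran in opposite directions, with line 889 highest for Prap1 and lowest for Anpep. Gata4, a factor of the proximal small intestine looked up after these values were seen, stood at 76.04, 76.8 and 2.14 FPKM in untreated lines 682, 700 and 889 in BME and at 5.31, 44.2 and 4.59 in lines 560, 700 and 889 on plastic. Its part in these differences was not tested.

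The mock pair was read on its own, with no replicate. Of 29 genes, 3 were over 1 higher in the mock dox library than in untreated line 682 (Rbp2, Ldhd and Anpep), against 1.29% of all genes, and 2 were over 1 lower (Myo1a and Ces2a), against 1.18%. The pair changes were 1.86, 1.84 and 1.11 for the first 3 and -1.19 and -3.01 for the last 2. Pck1 and Apoc2 had changes of 0.07 and 0.84 in the same pair.

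A second list of 50 absorptive genes (transporters, further hydrolases and metabolic enzymes) was fitted in the same way, and 0 were called in either environment. Of the 37 tested in BME, 22 had a change above 0 and 15 below, with a median of 0.16. Of the 25 tested on plastic, 16 were above 0 and 9 below, with a median of 0.21. The summed level did not lean the same way in all pairs. In BME it went from 2127 to 2504 FPKM in line 700, 2804 to 2341 in line 889 and 2058 to 1601 in the mock pair. On plastic it went from 1848 to 1458 in line 560, 1387 to 785 in line 700 and 569 to 580 in line 889. Of 25 enterocyte transcription factors, 24 were tested in BME, 12 above 0 and 12 below, and 19 on plastic, 15 above and 4 below, with 0 called. Gata6 was the 1 factor with an unadjusted p under 0.05 and a change over 1, on plastic, where its limma change was 2.08 (SE 0.80, adjusted p = 0.583). Pparg had limma changes of 0.86 (SE 0.29, unadjusted p = 0.0239, adjusted p = 0.959) in BME and 0.97 (SE 0.86) on plastic.

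Marker lists of other cells and states were read beside the enterocyte genes, and their part in the values above was not tested. Of 16 proliferation genes, all 16 had changes below 0 in both environments, with medians of -0.73 in BME and -1.06 on plastic, 0 called, and 6 with an unadjusted p under 0.05 and a change under -1 on plastic. Their summed level was 677 to 987 FPKM untreated, 321 to 991 in dox and 843 in mock in BME, and 452 to 724 against 227 to 482 on plastic. In BME the sum went from 677 to 321 in line 700 but from 986 to 991 in line 889, so the lower level there rests on line 700, while on plastic it was lower in dox in all 3 pairs. Of 13 stem cell genes tested in BME 12 were below 0 (median -0.37), and on plastic 7 were above and 6 below. Of 9 goblet cell genes 8 were below 0 in BME, and their summed level was 1958 to 4741 FPKM untreated, 707 to 1981 in dox and 993 in mock. On plastic 7 goblet genes were above 0, and the sums ran from 4.95 to 4728 untreated and from 3.12 to 1492 in dox. By pair, the goblet sum on plastic went from 4728 to 1492 in line 560, 22.3 to 3.12 in line 700 and 4.95 to 310.4 in line 889. Paneth genes summed to 137 to 3882 untreated, 118 to 2624 in dox and 105 in mock in BME, and 105 to 3235 against 50.4 to 1754 on plastic. These sums were lower in dox in both BME pairs and in lines 560 and 700 on plastic, and went from 232 to 715 in line 889 on plastic. By gene, 6 of 8 Paneth genes tested had a limma change above 0 in BME (median 0.92) and 9 of 11 on plastic (median 1.34), with 0 called and 0 with an unadjusted p under 0.05 and a change over 1. The 8 pan-epithelial genes summed to 4789 to 5980.0 FPKM untreated, 9193 to 10440 in dox and 5538 in mock in BME, and 13810 to 15460 against 12490 to 18750 on plastic. The 12 non-epithelial genes summed to at most 9.24 FPKM in BME and 22.2 on plastic, the latter in the dox library of line 889.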

How the data were processed

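RNA-Seq of 12 organoid libraries was used. Reads were assigned to transcripts by the authors with kallisto, and DESeq2 served for their comparisons, as the study's methods state; tool versions are not given in the sources used here, and the processing notes name build mm9. The deposited FPKM values came as 1 table for BME and 1 for plastic, each normalized by the authors over its own 6 libraries. The deposited comparison tables hold a mean normalized count (a signal over libraries) together with the authors' log2 fold change, its error, a test score, p-values and adjusted p-values for dox against no dox; only the mean was read, to set the scale of rebuilt reads, and the authors' comparison columns were not used. All columns were mapped to samples by name.

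The 38 genes, their roles and the other gene lists were chosen with earlier results of these data known. Genes with mean FPKM of at least 0.5 over a table were tested with limma 3.58.1 in R 4.3.3 (lmFit, eBayes with trend, two-sided) on log2(FPKM + 1), with Benjamini-Hochberg adjustment over all genes tested; genes were called where the adjusted p was below 0.05 and the change exceeded 1 in either direction. Changes are on the log2(FPKM + 1) scale, which understates those of low genes. BME compared 2 dox with 4 control libraries, plastic 3 with 3, and an interaction term compared the 2 dox effects. Same-numbered libraries are the same organoid line, and deviations from group means correlated between the 2 libraries of each line in each environment, with r of 0.18 to 0.66; the fit with line as a block is an alternative, as are another pseudocount, other filters, limma-voom on rebuilt reads, the mock library with dox, and leaving out each library.

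Reads were rebuilt from the FPKM steps; of values under 20 reads, 84.2% to 88.1% were whole within 0.05 reads. Full values are given for kept genes with mean FPKM of at least 10 in a table or an absolute mean pair change of at least 1; from each other list at most 3 genes with the largest mean change were named, and Gata4, Hnf4a, Cdx2 and Aqp8 were named in addition. A planned search for genes whose pair changes resemble Fabp1 and Apoa4 was not carried out, because both were under the filter. Gene positions are from GENCODE vM1 on NCBIM37, and promoter windows from RefSeq on GRCm38.p6. Python 3.11.15 was used for summaries and figures. The fits were tested on simulated data in which genes with many reads carried large known changes and all genes had the same spread. That test does not speak to genes that differ widely between lines. Unadjusted results for single genes of the second absorptive list are not reported here.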

Additional observations from a re-analysis of the deposited data

Results flagged for a closer look

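In 4 control libraries of BME (3 untreated and the mock library), 5 of 29 enterocyte genes had 1 library set apart from the other 3 by Dixon's criterion, where chance alone gives about 1.45 and 8.92% of all 12996 genes tested had such a library. The count is a description and nothing is read from it about the set. Untreated line 889 was the high library for 4 of the 5 genes, and for 3.69% of all genes. It held 12.4 FPKM of Sis against 0.124 in the next library, 162.5 FPKM of Vil1 against 109.9, 140.9 FPKM of Cdhr5 against 44.5, and 952 FPKM of Prap1 against 9.05. Untreated line 682 was the low library for Myo7b, with 52.8 FPKM against 64.3 in the next. The dox library of line 889 was likewise the higher of the 2 BME dox libraries for Sis, Vil1, Cdhr5 and Prap1. Groups of 3 libraries were not tested in this way.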

How the results depend on the processing

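Under the alternatives, 495 single-gene values kept their direction and their side of the threshold, 38 changed direction without being called and 4 passed the threshold. In BME 3 genes of 12996 were called, and the count was 0 with line as replicate block, 1 with a pseudocount of 0.1, 0 with a filter at mean FPKM 2, 1 with limma-voom on rebuilt reads and 0 with the mock library counted with dox. On plastic 4 of 12333 were called, and the count was 7 with the block, 10 with the pseudocount of 0.1, 0 with no filter and 11 with limma-voom. The dox effect on plastic minus that in BME gave 0 calls, and 9 with no filter. Leaving out single libraries gave 0 to 37 calls in BME and 0 to 55 on plastic, both maxima without the dox library of line 700. The median change of the enterocyte genes in BME, 0.65, was 0.36 with the block, 0.43 with the filter at 2 and 0.25 with the mock library counted with dox. On plastic, 0.36 became 0.58 with the pseudocount of 0.1 and 0.60 with limma-voom, and ran from 0.043 (without dox line 560) to 0.71 (without dox line 889) over left-out libraries. The causes were not tested.

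Pairing by line was used only in the fit with line as a block, because libraries with the same number are the same organoid line. The main fits had no term for line. The replicate block brought Ldhd on plastic past the threshold (change 3.12) and changed no other call among the enterocyte genes; it turned Anpep to 1.13 and Myo7b to -0.030 in BME. Counting the mock library with dox turned Anpep in BME to 1.12, and limma-voom turned Espn on plastic to 0.10. Leaving out single libraries turned the sign of uncalled changes, or brought Pck1 and Ldhd past the threshold, with these ranges in BME: Anpep -3.19 to 2.09, Myo7b -0.16 to 0.24, Apob -0.16 to 1.51, Pck1 3.70 to 7.51, Myo1a -1.42 to 0.10, Rbp2 -0.26 to 0.85, Dgat1 -0.0066 to 0.52, Khk -0.62 to 0.25, Sis -0.43 to 4.67, Ces2c -0.98 to 0.15. On plastic the ranges were Apoc2 -0.086 to 0.71, Rbp2 -0.35 to 2.17, Khk -0.38 to 0.96, Anpep -0.35 to 0.79, Cdhr5 -0.28 to 1.19, Ces2a -0.80 to 2.23, Ada -0.26 to 0.10, Apob -0.97 to 3.67, Espn -0.95 to 0.89, Pck1 2.88 to 6.22, Ldhd 2.77 to 3.41, Cdhr2 -0.12 to 0.86, Ces2c -1.22 to 0.20. On plastic, Pck1 and Ldhd were past the threshold without the dox library of line 700, the lowest dox library there for both. For Pck1 this choice fixes the outcome, and for Ldhd it favours a call. In BME it left 1 dox library, so that the controls alone give the spread, and the Pck1 change was 7.51. With few dox libraries per environment, 1 line decides many of these values, and FPKM values carry no counting error of their own.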

Other observations

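Lists of other intestinal and non-intestinal genes gave no called gene in either environment. Of 10 fetal-like and regenerative genes, 4 had a limma change above 0 and 6 below in both environments, with Ly6a at -0.11 (SE 0.61) in BME, where its changes were -0.93 and -0.83 in the dox pairs of lines 700 and 889 and -0.67 in the mock pair. On plastic Ly6a stood at -2.44 (SE 0.69, limma adjusted p = 0.454). Ly6a, the Sca-1 antigen seen in regenerating epithelium, was lower in dox in each of the 3 plastic pairs, at -2.17, -3.57 and -1.56. Other genes of the list differed from this: Il33 was higher in all 5 dox pairs and in the mock pair, with limma changes of 1.04 (SE 0.51) in BME and 1.25 (SE 0.78) on plastic, and Cd44, named after its values were seen, had limma changes of -0.69 (SE 0.38) in BME and 1.37 (SE 0.42, unadjusted p = 0.015, adjusted p = 0.499) on plastic. Aqp8 was the colonocyte gene with an unadjusted p under 0.05 and a change over 1 on plastic. Tuft cell genes summed to 17.1 to 22.8 FPKM untreated, 9.71 to 26.3 in dox and 10.4 in mock in BME, and to 15.4 to 28.99 and 12.5 to 45.3 FPKM on plastic. Enteroendocrine genes summed to at most 7.05 FPKM in any library, and the hepatocyte list to 51.5 FPKM or less in BME and 1.47 or less on plastic. Among stem cell genes, Lgr5 had a limma change of -1.002 (SE 0.62) in BME, with -1.73 and -1.25 in the dox pairs and -1.56 in the mock pair, and of 0.17 (SE 1.32) on plastic.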
